A study of Mus musculus with 13 samples.

Results

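Plasmacytoid dendritic cells (pDCs) and CD8 T lymphocytes of the mouse spleen were compared over 4 arrays, which are the 2 arrays titled pDCs and the 2 arrays titled CD8 T lymphocytes among 13 arrays of 6 spleen leukocyte populations. The question was which genes separate both cell types, and which genes of the T lymphoid program pDCs nevertheless transcribe. The pDCs came from pooled spleens of 10 to 15 untreated wild-type C57BL/6 mice per array, sorted as cells without lineage markers that carried CD11c and high levels of the 120G8 antigen, in independent experiments. The CD8 T cells came from the spleen of 1 untreated wild-type C57BL/6 mouse per array, labelled as a female aged 6 to 8 weeks, and were sorted in other experiments. Neither sex nor age was given for the pDC mice. All spleens were digested with collagenase, and 100 ng of RNA per sample was named as the start of 2 rounds of cRNA amplification. The CD8α and CD11b conventional DCs (cDCs), with 2 arrays each from pools of the same size, were used where a T lymphoid gene of pDCs was set against the other spleen DCs. Among the cDC arrays an age, of 6 to 8 weeks, was labelled for replicate 1 of the CD8α cDCs alone. Expression was read on Affymetrix Mouse Genome 430 2.0 arrays and is given as MAS5 signal, a linear brightness per probe set that was scaled to a target of 100 on each array. A signal says how much RNA of a gene was in the sample, so fewer cells with a transcript and less transcript per cell cannot be told apart.

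pDCs are round, plasma-cell-like cells that sense nucleic acids in endosomes and release large amounts of type I interferon. They develop from progenitors that express the receptor tyrosine kinase Flt3 and depend on the E protein Tcf4, a basic helix-loop-helix factor that binds E-boxes and that is held in check by inhibitor-of-DNA-binding proteins such as Id2. CD8 T cells recognise peptides on MHC class I molecules through the T cell receptor. The receptor signals through the CD3 chains and Cd247, whose activation motifs (ITAMs) recruit the kinase Zap70 and the adaptor Lat, and the CD8 coreceptor brings the kinase Lck to the complex. pDCs have no T cell receptor, but they have long been known to carry some transcripts and surface proteins of lymphocytes.

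The arrays matched their titles with 1 exception that concerns the mice. Siglech, a lectin of mouse pDCs, had signals of 3613 and 3038 in pDCs, against 14.3 and 5.05 in CD8 T cells, and Cd3e, a chain of the T cell receptor complex, had 17.97 and 2.49 in pDCs, against 562 and 625 in CD8 T cells. Xist, which is transcribed from the inactive X chromosome of female cells, had 3838 and 4503 in pDCs, against 0.963 and 0.877 in CD8 T cells. The Y-linked genes showed the opposite, with 2.09 and 0.344 in pDCs, against 689.9 and 968 in CD8 T cells for Eif2s3y, 10.6 and 7.16 in pDCs, against 185 and 159 in CD8 T cells for Kdm5d and 0.3296 and 11.4 in pDCs, against 88.1 and 85.9 in CD8 T cells for Uty. Both CD8 T arrays therefore carried the transcripts of male cells and none of Xist, although their labels give female mice. Sex thus runs with the population in every comparison of pDCs with CD8 T cells. The cDC arrays carried Xist too, with 2062 and 1539 in CD8α cDCs and 3038 and 1653.5 in CD11b cDCs. Between pDCs and cDCs Xist was not called by limma (adjusted p = 0.676). The pDC arrays were scanned on 1 day and the CD8 T arrays on another, with a different chip lot, so that population, scan day, lot and sex cannot be told apart. Replicates correlated at 0.980 over pDCs and 0.981 over CD8 T cells, and the GAPDH 3' to 5' signal ratio was 4.12 and 5.99 on the pDC arrays, against 3.46 and 3.96 on the CD8 T arrays. Markers of several other cells were low on the pDC arrays: none of the 7 B cell and 5 NK cell marker genes on the array reached 50 on both, the complement genes C1qa, C1qb and C1qc of macrophages stayed below 25, and the 3 erythroid genes below 20. Blk, a B cell kinase, had 55.03 and 29.7 in pDCs, against 17.04 and 16.6 in CD8 T cells, and Cd14, a monocyte marker, had 149 and 79.3 in pDCs, against 14.9 and 16.01 in CD8 T cells, and both were called higher in pDCs. The call of Blk was lost without pDC replicate 1 (adjusted p = 0.212) and without either CD8 T array (adjusted p = 0.0942 and 0.0899). That of Cd14 was lost when no floor was set for low signals (adjusted p = 0.0929). Lyz2, a lysozyme of myeloid cells, had 181 and 89.4 in pDCs, against 56.5 and 26.6 in CD8 T cells and was not called. Transcripts of mature neutrophils were near background, with 18.2 and 22.4 in pDCs, against 95.2 and 13.1 in CD8 T cells for S100a8. The marker sums of the B cell list were 123 and 114 in pDCs, against 243 and 128 in CD8 T cells. Those of the NK cell list were 39.3 and 85.0 in pDCs, against 3294 and 1938 in CD8 T cells. Of its 5 genes tested 4 were called lower in pDCs, beside 21.3% of all genes. The sums of the macrophage and monocyte list were 995 and 992 in pDCs, against 211 and 118 in CD8 T cells. Csf1r, the receptor of a macrophage growth factor, gave 563 and 727 of the pDC sums. Of the cDC markers Cd83 had 149 and 119 in pDCs, against 43.1 and 29.1 in CD8 T cells and Zbtb46 had 48.8 and 55.98 in pDCs, against 9.11 and 1.86 in CD8 T cells, both called higher in pDCs (adjusted p = 9.64e-05 and 0.000859), while Xcr1, Ccl17 and Itgam were below 20 on both pDC arrays. The call of Zbtb46 was lost when all signals below 50 were set to 50 (adjusted p = 0.702), and 1 of its 2 probe sets was not called. The cDC arrays themselves had 5291 and 4288 in CD8α cDCs and 4619 and 4237 in CD11b cDCs for Cd83. The sums of the cDC marker list were 223 and 206 in pDCs, against 72.1 and 48.7 in CD8 T cells. Those of the plasma cell list were higher in pDCs, with 2143 and 1719 in pDCs, against 92.6 and 77.2 in CD8 T cells. Of its 4 genes tested 3 were called higher in pDCs, beside 22.7% of all genes. Sdc1 of this list had 64.6 and 53.4 in pDCs, against 4.48 and 3.18 in CD8 T cells, and Mzb1 and Irf4 are described below. The part of such cells in the results was not tested.

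Of 9391 genes tested, 4132 (44%) were called different between pDCs and CD8 T cells by limma at a Benjamini-Hochberg adjusted p under 0.05, of which 2134 (22.7% of the genes tested) were higher and 1998 (21.3%) were lower in pDCs. These shares, 22.7% higher and 21.3% lower, are the background for the count of each gene list below. The change was at least 2-fold for 1528 of the higher and 1289 of the lower genes, and the median log2 difference over all genes was 0. Signals below 20 were set to 20, close to the background of these arrays, so that a fold against a population with 1 or both arrays below 20 is a lower bound. Both arrays were below 20 for 399 higher genes, with CD8 T cells below 20, and for 263 lower genes, with pDCs below 20. The spread was pooled over the 6 populations of the series, since 2 arrays on each side give little information of their own.

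**Figure D1:**
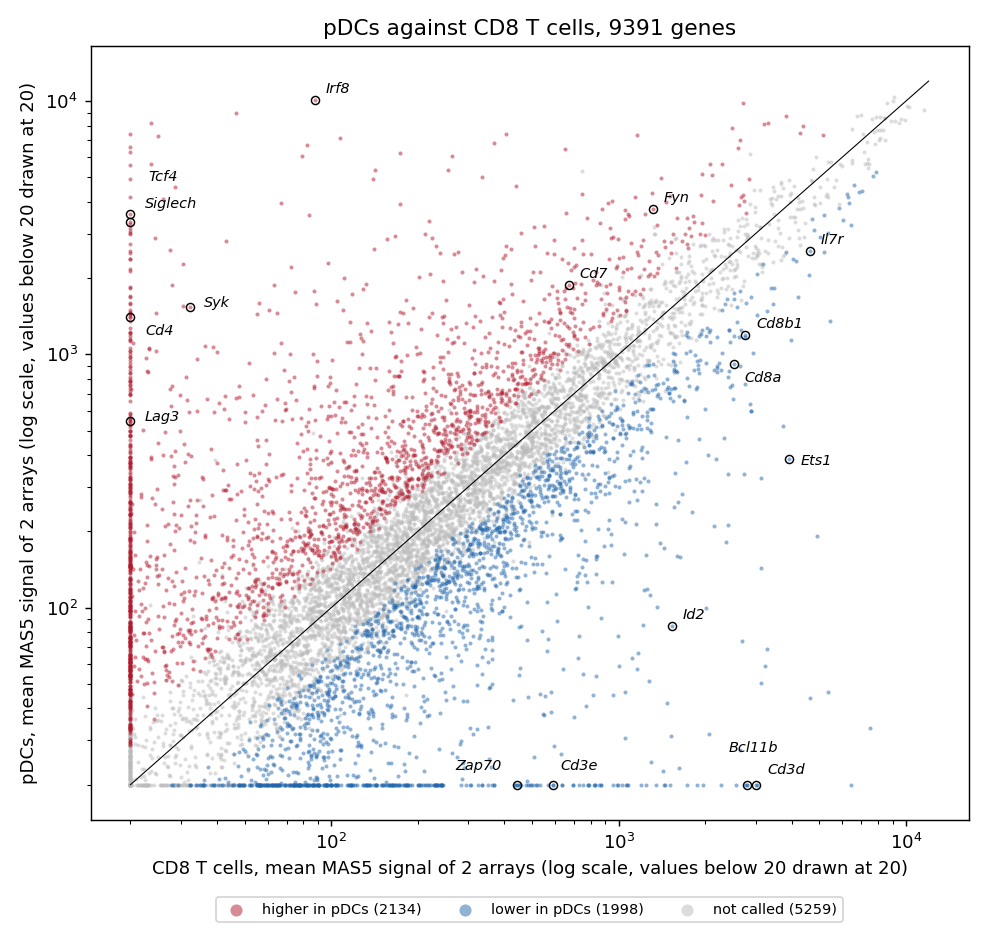
Mean MAS5 signal of 2 arrays per gene in pDCs (vertical, log scale) against CD8 T cells (horizontal, log scale), with means below 20 drawn at 20. Red points are the 2134 genes called higher and blue points the 1998 genes called lower in pDCs, and the circled genes show that Cd3d, Cd3e, Zap70 and Bcl11b lie at the floor in pDCs while Cd8a, Cd8b1, Il7r and Ets1 lie well above it.

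The promoters of a few genes that mark the sides of the comparison are shown because Tcf4 was called higher and Id2 lower in pDCs (below). The product of Tcf4 binds E-boxes, and that of Id2 holds E proteins in check. Siglech and Klra17 stand for genes of pDCs, Cd8a and Fyn for T lymphoid genes that pDCs transcribe, and Cd3d and Cd3e for T lymphoid genes that they do not. Each sequence runs from 250 bases before to 50 bases after the start of the gene in the RefSeq annotation of GRCm38.p6, written 5′ to 3′ on the strand of the gene, with E-boxes of the letters CAGGTG or CAGCTG (and CACCTG, the other strand of the first) in capitals. The windows are chr7:55767934-55768233 (+ strand), chr6:129876623-129876922 (- strand), chr6:71373177-71373476 (+ strand), chr10:39369549-39369848 (+ strand), chr9:44981536-44981835 (+ strand) and chr9:45009562-45009861 (- strand).
Siglech: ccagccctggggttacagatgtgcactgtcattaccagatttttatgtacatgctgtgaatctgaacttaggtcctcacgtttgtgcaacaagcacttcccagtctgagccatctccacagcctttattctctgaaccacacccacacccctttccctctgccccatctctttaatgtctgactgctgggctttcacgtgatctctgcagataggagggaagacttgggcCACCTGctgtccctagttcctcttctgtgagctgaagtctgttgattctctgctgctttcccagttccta
Klra17: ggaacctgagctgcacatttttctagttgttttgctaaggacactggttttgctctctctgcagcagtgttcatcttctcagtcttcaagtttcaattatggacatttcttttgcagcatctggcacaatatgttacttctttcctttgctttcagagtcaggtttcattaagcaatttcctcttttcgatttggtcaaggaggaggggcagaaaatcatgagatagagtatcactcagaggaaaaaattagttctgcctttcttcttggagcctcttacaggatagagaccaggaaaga
Cd8a: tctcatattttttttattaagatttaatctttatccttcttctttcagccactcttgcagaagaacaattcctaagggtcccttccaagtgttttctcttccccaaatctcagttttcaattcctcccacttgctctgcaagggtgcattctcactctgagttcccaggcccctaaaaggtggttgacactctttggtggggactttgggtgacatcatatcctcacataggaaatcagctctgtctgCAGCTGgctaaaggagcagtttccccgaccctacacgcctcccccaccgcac
Fyn: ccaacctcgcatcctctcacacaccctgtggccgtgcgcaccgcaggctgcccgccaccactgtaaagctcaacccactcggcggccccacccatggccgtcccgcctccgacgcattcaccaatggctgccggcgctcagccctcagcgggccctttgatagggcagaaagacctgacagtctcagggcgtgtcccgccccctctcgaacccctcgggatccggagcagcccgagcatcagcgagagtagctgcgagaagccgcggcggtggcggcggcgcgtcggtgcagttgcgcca
Cd3d: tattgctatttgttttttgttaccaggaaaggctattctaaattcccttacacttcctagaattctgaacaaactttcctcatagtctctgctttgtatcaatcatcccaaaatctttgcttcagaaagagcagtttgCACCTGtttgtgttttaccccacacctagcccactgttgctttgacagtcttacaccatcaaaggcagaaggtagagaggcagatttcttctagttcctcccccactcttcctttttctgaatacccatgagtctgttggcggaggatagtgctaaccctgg
Cd3e: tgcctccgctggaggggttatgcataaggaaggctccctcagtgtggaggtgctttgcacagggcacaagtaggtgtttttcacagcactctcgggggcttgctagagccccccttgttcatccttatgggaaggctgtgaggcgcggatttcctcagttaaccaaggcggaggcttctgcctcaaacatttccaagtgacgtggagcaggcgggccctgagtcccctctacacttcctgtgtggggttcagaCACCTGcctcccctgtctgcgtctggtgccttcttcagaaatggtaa
One E-box lay at position -20 of Siglech, -2 of Cd8a, -112 of Cd3d and 4 of Cd3e, counted from the start of the gene with no position 0, and these windows of Klra17 and Fyn held none. Among all 32851 promoter windows annotated, 32.9% held at least 1 such E-box, against 8 of 25 windows (32%) of the pDC identity genes and 33 of 84 windows (39.3%) of the T lymphoid genes. The letters CCGGAA (and TTCCGG on the other strand) stand at the core of sites of ETS factors such as Ets1. They were found in 2 of 25 windows (8%) of the pDC identity genes and 6 of 84 (7.14%) of the T lymphoid genes. Of all windows 14.9% held them. Of the genes, 19 of 22 and 59 of 82 had an annotated window. The motif matches are a description of the letters only.

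pDCs transcribed a sizeable part of the T lymphoid genes. Of 93 genes in 4 lists (T cell receptor and coreceptors, signalling, surface and transcription factors), 82 had an annotated probe set, and 40 of them had a signal of at least 50 on both pDC arrays, which is called kept here. Another 31 were below 20 on both pDC arrays and 11 lay between. Among the 78 genes with at least 50 on both CD8 T arrays 38 (48.7%) were kept in pDCs, against 87.8% of all 7556 genes tested that reached 50 on both CD8 T arrays. Over all genes tested, 79.9% reached 50 on both pDC arrays. Of the 80 T lymphoid genes tested 60 were lower in pDCs, 6 were higher and 14 were not called, beside 21.3% lower and 22.7% higher among all genes, and their median log2 difference was -2.81, against 0 for all genes. Of the 40 kept genes, 21 were lower in pDCs than in CD8 T cells, 6 were higher (Cd4, Fyn, Sla2, Cd7, Lag3 and Runx1) and 13 were not called. A stricter level of 100 on both pDC arrays left 37 of them.

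**Figure D2:**
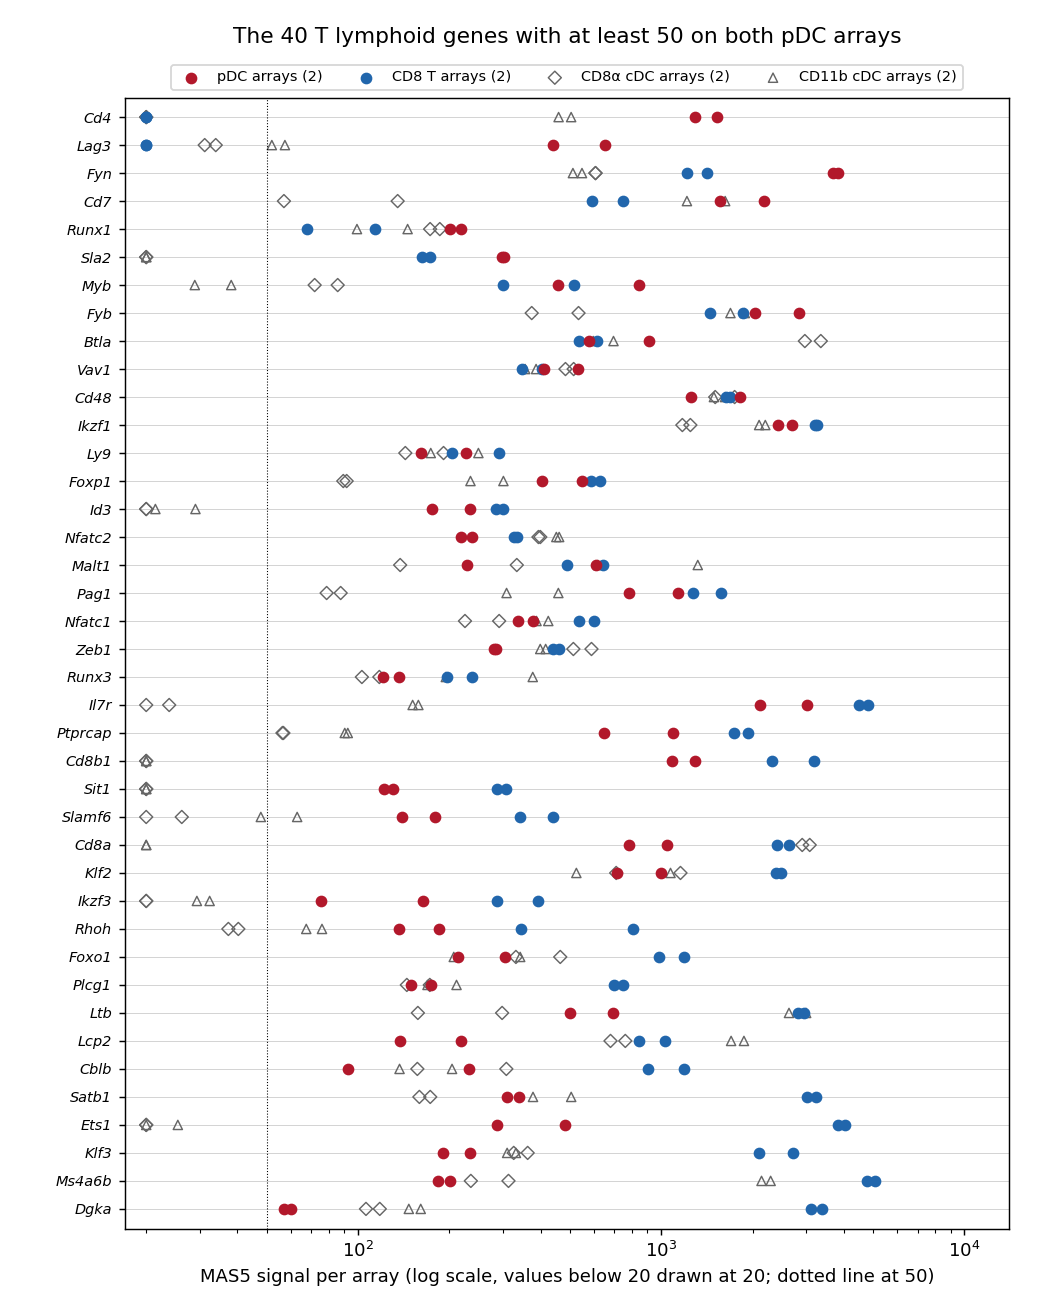
MAS5 signal per array (log scale, values below 20 drawn at 20) of the 40 T lymphoid genes with at least 50 on both pDC arrays, ordered by the log2 difference between pDCs and CD8 T cells, with 2 pDC arrays in red, 2 CD8 T arrays in blue and the cDC arrays as open symbols. Cd4 and Lag3 at the top were above 400 in pDCs and below 20 in CD8 T cells, and for Cd8b1, Sit1 and Sla2 all 4 cDC arrays were below 20.

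The coreceptor genes were transcribed in pDCs without the genes of the receptor complex. Cd8b1, which encodes the β chain of the CD8 coreceptor, had signals of 1295 and 1088 in pDCs, against 2324 and 3201 in CD8 T cells, and was lower in pDCs by 2.298-fold (log2 difference -1.20 ± 0.24, adjusted p = 0.00228). Cd8a, the α chain, had 781 and 1047 in pDCs, against 2399.8 and 2629 in CD8 T cells (log2 difference -1.47 ± 0.25, adjusted p = 0.000692), and all 5 of its probe sets that passed the filter were called lower in pDCs. Both CD8 chains were thus lower on every pDC array than on every CD8 T array, Cd8a by 2.78-fold. Both calls were lost when no floor was applied (adjusted p = 0.267 for Cd8a and 0.387 for Cd8b1), and that of Cd8b1 with a covariate for the naming scheme of the arrays (adjusted p = 0.0883). Without the floor the log2 differences of Cd8a and Cd8b1 were still -1.47 and -1.20, as no array of the pair was below it for these genes. Cd4, the coreceptor for MHC class II, went the other way, with 1526 and 1287 in pDCs, against 3.61 and 1.84 in CD8 T cells, at least 70.1-fold higher in pDCs (log2 difference 6.13 ± 0.15, adjusted p = 5.95e-10). The 3 CD3 genes and Cd247 were at or below background on both pDC arrays. Cd3d had 1.11 and 1.16 in pDCs, against 2752 and 3281 in CD8 T cells, Cd3g had 12.1 and 1.55 in pDCs, against 2657 and 2470.4 in CD8 T cells and Cd247 had 12.5 and 1.12 in pDCs, against 887 and 1099.5 in CD8 T cells. CD8 T cells were at least 150.2-fold higher for Cd3d, 128-fold for Cd3g, 49.4-fold for Cd247 and 29.6-fold for Cd3e (adjusted p = 1.65e-09, 1.28e-07, 4.01e-09 and 3.35e-09 in the same order). The markers that define T cells were therefore at background on the same pDC arrays on which Cd8b1 stood above 1000. Ptcra, the pre-T cell receptor α chain, was too low to be tested, with 14.4 and 23.4 in pDCs, against 3.14 and 14.1 in CD8 T cells. Trac, Trbc1 and Trbc2, the constant regions of the receptor, and Lck were not analysed here. The probe sets annotated to the variable segments Trbv1 and Trav9d-3, which can cross-hybridise within their families, had 8.02 and 14.2 in pDCs, against 6236 and 6688 in CD8 T cells and 16.3 and 13.8 in pDCs, against 2640.4 and 2891 in CD8 T cells. The study lists 1 of the 3 probe sets annotated to Trav9d-3 as Tcra, so these signals may not be those of single segments.

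Downstream of the receptor, genes of the proximal relay were low in pDCs, while several adaptors and a Src family kinase were kept. Of the 29 T cell signalling genes tested 22 were lower, 2 were higher and 5 were not called (median log2 difference -3.33), and 14 were kept. Zap70, the kinase that binds the CD3 chains, had 1.28 and 5.53 in pDCs, against 454 and 429 in CD8 T cells, and Prkcq, the protein kinase C of the T cell synapse, had 6.86 and 4.23 in pDCs, against 1738 and 1729.8 in CD8 T cells. Lat, the membrane scaffold that Zap70 phosphorylates, had 35.3 and 28.3 in pDCs, against 1797 and 2342 in CD8 T cells. All 3 were lower in pDCs, Prkcq by at least 86.7-fold and Zap70 by at least 22.1-fold (adjusted p = 8.49e-10 and 7.44e-09). Lat, whose pDC signals lay just above the floor, was lower by 64.9-fold (adjusted p = 7.17e-09). Of the 3 probe sets of Zap70 that passed the filter, 2 were called lower. The other had 58.0 and 51.0 in pDCs, against 78.3 and 116 in CD8 T cells. It was not called by limma over probe sets (adjusted p = 0.0567). Rasgrp1, an activator of Ras in T cells, had 7.62 and 4.79 in pDCs, against 1215 and 1189 in CD8 T cells, and Themis, which is needed for positive selection in the thymus, had 1.19 and 4.53 in pDCs, against 793 and 705 in CD8 T cells. Both were at least 37.4-fold lower in pDCs. Fyn, a Src family kinase that phosphorylates ITAMs, stood out on the other side with 3673 and 3835 in pDCs, against 1213 and 1414 in CD8 T cells, 2.87-fold higher in pDCs (log2 difference 1.52 ± 0.47, adjusted p = 0.0227). Every pDC array lay above every CD8 T array, but the call was lost when any 1 of these 4 arrays was left out (adjusted p = 0.0728 to 0.118), and 1 of its 2 probe sets was not called. Sla2, an adaptor that restrains receptor signalling in lymphocytes, had 298 and 303 in pDCs, against 162 and 172 in CD8 T cells (log2 difference 0.85 ± 0.29, adjusted p = 0.0363). Its call was close to the threshold and was lost without any 1 array of pDCs, CD8 T cells, cDCs or NK cells (adjusted p = 0.0527 to 0.143).

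Other adaptors were kept as well. Fyb, the adhesion adaptor ADAP, had 2030.2 and 2835 in pDCs, against 1447 and 1853 in CD8 T cells, and Pag1, which anchors the inhibitory kinase Csk in the membrane, had 781 and 1131 in pDCs, against 1271 and 1579 in CD8 T cells, and neither passed the test (adjusted p = 0.0874 and 0.0614), although Pag1 was called lower under other settings, such as quantile normalization (adjusted p = 0.0192). Ptprcap, which associates with the phosphatase CD45, had 1089.6 and 645 in pDCs, against 1731 and 1934 in CD8 T cells, and Sit1, an inhibitory adaptor of T cells, had 122 and 131 in pDCs, against 287 and 307 in CD8 T cells. Both were lower in pDCs, by 2.18-fold and 2.35-fold (adjusted p = 0.0075 and 0.00056), and the call of Ptprcap was lost without pDC replicate 2 (adjusted p = 0.0725) and without CD8 T replicate 2 (adjusted p = 0.0517). Lcp2, the adaptor SLP-76, was kept at a lower level, with 137 and 218 in pDCs, against 845 and 1032 in CD8 T cells (log2 difference -2.43 ± 0.39, adjusted p = 0.000509). Plcg1, the phospholipase of the T cell receptor, had 149 and 173 in pDCs, against 699 and 748 in CD8 T cells (log2 difference -2.17 ± 0.20, adjusted p = 7.08e-06), and Dgka, which ends diacylglycerol signals, had 60.2 and 57.1 in pDCs, against 3112 and 3378 in CD8 T cells (log2 difference -5.79 ± 0.24, adjusted p = 1.58e-08). The kept signalling genes thus ranged from Fyn, above the T cell level, to Dgka, 55.3-fold below it.

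Among 22 T cell surface genes tested 16 were lower, 2 were higher and 4 were not called (median log2 difference -2.29). Il7r, the receptor chain for interleukin-7 that sustains lymphocytes and their progenitors, had 2113 and 3019.8 in pDCs, against 4819.8 and 4475 in CD8 T cells and was 1.84-fold lower (log2 difference -0.88 ± 0.21, adjusted p = 0.00682). The call was lost without pDC replicate 1 (adjusted p = 0.0587). Cd7, an immunoglobulin family receptor of T cells, NK cells and early progenitors, had 2186 and 1561 in pDCs, against 592 and 748 in CD8 T cells and was 2.78-fold higher in pDCs (adjusted p = 0.00526), although the call was lost without pDC replicate 1 (adjusted p = 0.0579) or CD8 T replicate 1 (adjusted p = 0.0503). Lag3, an inhibitory receptor that binds MHC class II, had 652 and 440.1 in pDCs, against 14.1 and 12.5 in CD8 T cells, at least 26.8-fold higher in pDCs (log2 difference 4.74 ± 0.19, adjusted p = 9.76e-09). Cd48, a ligand in the SLAM family, had 1818 and 1249 in pDCs, against 1629 and 1687 in CD8 T cells, and Btla, an inhibitory receptor, had 578 and 908 in pDCs, against 536 and 613 in CD8 T cells. The signals of both cell types overlapped for these genes, and neither was called (adjusted p = 0.849 and 0.295). The classical T cell antigens were on the other side. Cd2 had 0.529 and 8.97 in pDCs, against 2073 and 2459.8 in CD8 T cells, Cd6 had 1.804 and 1.14 in pDCs, against 493 and 511 in CD8 T cells and Cd27 had 6.03 and 11.6 in pDCs, against 413 and 459 in CD8 T cells, all of them at background in pDCs. Thy1, the T cell antigen of the mouse, had 57.4 and 43.4 in pDCs, against 3319.7 and 2949 in CD8 T cells, Cd5 had 36.3 and 24.7 in pDCs, against 805 and 1306 in CD8 T cells and Cd28, the costimulatory receptor, had 48.9 and 105 in pDCs, against 863 and 1120.0 in CD8 T cells, so that these 3 were between background and the level called kept. Ms4a4b, a membrane protein of T cells, was 227-fold lower in pDCs, with 27.9 and 39.4 in pDCs, against 7254 and 7802 in CD8 T cells, whereas its relative Ms4a6b had 184 and 201 in pDCs, against 4763 and 5053 in CD8 T cells and lymphotoxin β (Ltb) had 691 and 501 in pDCs, against 2959 and 2819.9 in CD8 T cells, both kept at a lower level (adjusted p = 3.24e-08 and 0.000139).

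Several transcription factors that lymphocytes share were kept in pDCs, while others known to fix the T cell fate were below 20. Of 22 T cell transcription factor genes tested 16 were lower, 1 was higher and 5 were not called (median log2 difference -2.44), and 14 were kept. Ets1, a factor of lymphocyte development, had 288 and 482 in pDCs, against 4022 and 3838 in CD8 T cells and was 10.5-fold lower in pDCs (log2 difference -3.40 ± 0.27, adjusted p = 2.18e-06), with all 4 of its probe sets called in this direction. It was still far above the cDCs, which had 3.73 and 1.52 in CD8α cDCs and 25.4 and 2.22 in CD11b cDCs (log2 difference 4.13 ± 0.23, adjusted p = 1.87e-07). Ikzf1, the Ikaros factor of lymphoid progenitors, had 2693 and 2434 in pDCs, against 3255 and 3224 in CD8 T cells, and Foxp1 had 546 and 403 in pDCs, against 586 and 626 in CD8 T cells. Myb, a factor of progenitors and thymocytes, had 456 and 846 in pDCs, against 515 and 300.3 in CD8 T cells, and Id3, an inhibitor of E proteins, had 233 and 176 in pDCs, against 285 and 299.8 in CD8 T cells. None of these 4 was called (adjusted p = 0.252, 0.182, 0.293 and 0.0911), and all were at least 100 on every array of the pair. Other settings called Ikzf1 and Id3 lower (quantile normalization, adjusted p = 0.0253 and 0.036), Foxp1 lower (all probe sets averaged, adjusted p = 0.00971) and Myb higher (naming scheme covariate, adjusted p = 0.0105). Runx1 had 201 and 219 in pDCs, against 114 and 67.9 in CD8 T cells and was higher in pDCs (log2 difference 1.25 ± 0.30, adjusted p = 0.00624), a call that was lost without CD8 T replicate 2 (adjusted p = 0.0666). The 4 next factors that are known to commit or maintain T cells were below 20 on both pDC arrays. Bcl11b, which fixes T cell identity, had 2.38 and 1.81 in pDCs, against 2883 and 2705 in CD8 T cells, Lef1, an effector of Wnt signals, had 7.58 and 4.46 in pDCs, against 1495 and 1386 in CD8 T cells and Eomes, a T-box factor of memory CD8 T cells, had 1.46 and 2.45 in pDCs, against 913 and 733 in CD8 T cells. Gata3 had 1.15 and 7.57 in pDCs, against 134 and 145 in CD8 T cells. CD8 T cells were at least 139.6-fold higher for Bcl11b, 71.98-fold for Lef1, 40.9-fold for Eomes and 6.96-fold for Gata3 (adjusted p between 1.41e-09 and 1.07e-06). Satb1, a chromatin organiser of thymocytes, had 309.9 and 339 in pDCs, against 3015 and 3232 in CD8 T cells, and Klf3 had 190.4 and 233 in pDCs, against 2717 and 2105 in CD8 T cells, so these 2 were kept but 9.64-fold and 11.3-fold lower.

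The DC transcription factors ran the other way, with 14 of 21 higher in pDCs, 1 lower and 6 not called (median log2 difference 3.18). Over all genes 22.7% were higher and 21.3% lower. Tcf4 had 3832 and 3342 in pDCs, against 14.7 and 13.8 in CD8 T cells, at least 179-fold higher in pDCs (log2 difference 7.48 ± 0.18, adjusted p = 5.95e-10), and all 5 of its probe sets were called higher. Its relatives in the E protein family showed no such pattern: Tcf12 had 1311 and 1509.5 in pDCs, against 1588 and 1462 in CD8 T cells, and Tcf3 had 139.6 and 122 in pDCs, against 150.4 and 172 in CD8 T cells, and neither was called (adjusted p = 0.706 and 0.33). Id2, the inhibitor of E proteins, was the only gene of this list that was lower, with 78.5 and 90.5 in pDCs, against 1803 and 1272 in CD8 T cells, 17.96-fold lower in pDCs (log2 difference -4.17 ± 0.34, adjusted p = 2.50e-06), and all 3 of its probe sets were called. In the cDCs Id2 had 3729 and 4046 in CD8α cDCs and 1586 and 1353 in CD11b cDCs, so that pDCs were below these arrays too (log2 difference -4.82 ± 0.29, adjusted p = 2.98e-07). Spib, an ETS factor of pDCs and B cells, had 3310.0 and 3207 in pDCs, against 23.4 and 16.4 in CD8 T cells, Irf8 had 10515 and 9727 in pDCs, against 88.6 and 86.5 in CD8 T cells and Bcl11a had 1557 and 1381 in pDCs, against 9.57 and 10.9 in CD8 T cells. Spib was at least 151-fold, Irf8 116-fold and Bcl11a at least 73.3-fold higher in pDCs (adjusted p = 2.29e-08, 4.58e-10 and 7.33e-08). Bcl11a and Bcl11b, paralogues of one family, were thus transcribed in opposite cells, each below 20 on both arrays of the other. Irf7, the master factor of interferon-α induction, had 1423 and 1133 in pDCs, against 247 and 298 in CD8 T cells, 4.69-fold higher in pDCs (adjusted p = 0.00303).

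**Figure D3:**
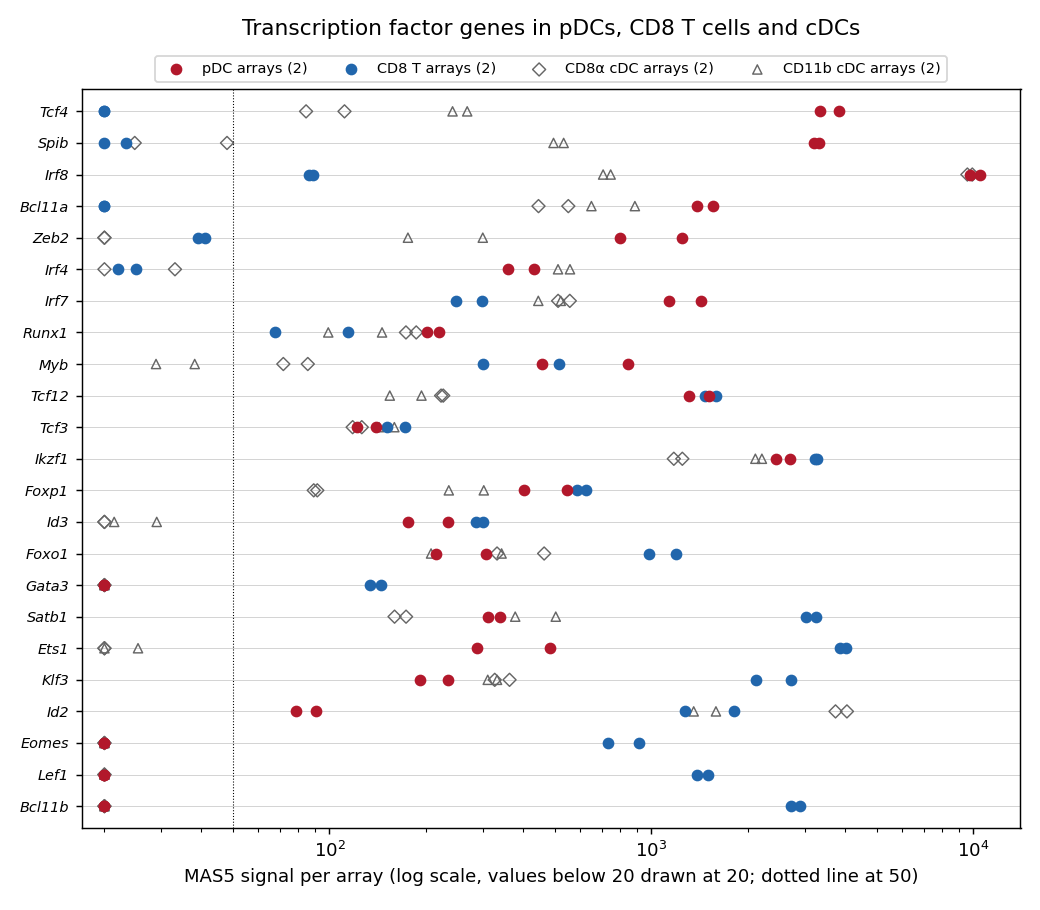
MAS5 signal per array (log scale, values below 20 drawn at 20) of 23 transcription factor genes, ordered by the log2 difference, in pDCs (red), CD8 T cells (blue) and cDCs (open symbols). Tcf4, Spib and Bcl11a were above 1000 on both pDC arrays and below 25 on both CD8 T arrays, Tcf12, Ikzf1 and Foxp1 were of a like height in pDCs and CD8 T cells, and Bcl11b, Lef1 and Eomes were at the floor on both pDC arrays.

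A total of 20 of the 40 kept T lymphoid genes were also higher in pDCs than the mean of both cDC subsets. Another 7 were lower and 13 were not called, beside 17.7% higher and 19.1% lower among all genes tested in that comparison. Kept genes were chosen by their pDC signal, which is on 1 side of this comparison, and among all 7507 genes with at least 50 on both pDC arrays 21.3% were higher and 14% lower, so the count is a description. It shares the pDC arrays with the comparison against CD8 T cells. For 18 of the 20 both pDC arrays were above all 4 cDC arrays, the exceptions being Cd8a and Cd7. Several of these genes (Ets1, Myb, Sit1, Sla2, Ptprcap and Rhoh) were named by the study as pDC genes from these arrays. Their direction against cDCs is therefore not independent evidence. Cd8b1 had 19.7 and 16.6 in CD8α cDCs and 0.895 and 6.76 in CD11b cDCs (log2 difference 5.89 ± 0.21, adjusted p = 5.46e-09), whereas Cd8a had 3087 and 2916 in CD8α cDCs and 17.3 and 3.17 in CD11b cDCs. All 4 cDC arrays were thus below 20 for the β chain, while both CD8α cDC arrays were above both pDC arrays for Cd8a. Il7r had 17.7 and 23.8 in CD8α cDCs and 151 and 158 in CD11b cDCs (log2 difference 5.44 ± 0.19, adjusted p = 4.36e-09). Cd4 had 11.98 and 5.85 in CD8α cDCs and 504 and 458 in CD11b cDCs (log2 difference 3.84 ± 0.13, adjusted p = 3.96e-09), and Lag3 had 31.2 and 33.9 in CD8α cDCs and 51.9 and 57.4 in CD11b cDCs (log2 difference 3.67 ± 0.16, adjusted p = 2.95e-08). Fyn had 607 and 606 in CD8α cDCs and 548 and 511 in CD11b cDCs (log2 difference 2.73 ± 0.41, adjusted p = 0.000316), so that pDCs were above both cDCs and CD8 T cells on every array. Lcp2 had 761 and 679.9 in CD8α cDCs and 1699 and 1873 in CD11b cDCs and Btla had 3358 and 2975 in CD8α cDCs and 695 and 597 in CD11b cDCs, and both were lower in pDCs than in cDCs (adjusted p = 9.03e-05 and 0.00395).

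The GIMAP genes, a cluster of GTPases of lymphocyte survival, were all lower in pDCs (8 of 8 tested, median log2 difference -4.69), but not all were at background. Gimap4 had 38.9 and 53.9 in pDCs, against 5385 and 5318 in CD8 T cells, and Gimap1 and Gimap6 had 172 and 147 in pDCs, against 773 and 904 in CD8 T cells and 179 and 164 in pDCs, against 1109 and 1760.2 in CD8 T cells. Of these, 4 reached 50 on both pDC arrays. In cDCs Gimap6 had 10.7 and 1.07 in CD8α cDCs and 18.3 and 11.6 in CD11b cDCs, and pDCs were higher (log2 difference 3.10 ± 0.32, adjusted p = 2.26e-05). The effector genes of cytotoxic cells were lower in pDCs for 16 of 17 tested (median log2 difference -3.54). Nkg7, a granule membrane protein, had 5.79 and 25.7 in pDCs, against 2913 and 3137 in CD8 T cells, Ccl5, a chemokine stored by memory T cells, had 25.9 and 61.9 in pDCs, against 5020.0 and 4238 in CD8 T cells, and Prf1, the pore-forming perforin, had 14.5 and 17.8 in pDCs, against 384 and 510.5 in CD8 T cells. Gzma, granzyme A, differed between the CD8 T arrays, with 16.7 and 29.9 in pDCs, against 2303 and 954 in CD8 T cells. The exception was Klrd1, the CD94 chain of inhibitory NK receptors, with 2561 and 2746 in pDCs, against 3966 and 3452 in CD8 T cells, which was not called (adjusted p = 0.46) but was called lower with a covariate for the naming scheme of the arrays (adjusted p = 0.00481). Ctsw, a cathepsin of cytotoxic cells, was kept in pDCs at 206 and 158 in pDCs, against 2185 and 2543 in CD8 T cells and was 13.1-fold lower.

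Where T cells had Zap70 and Lat, pDCs had the ITAM signalling genes of B cells and myeloid cells. Of 20 such genes tested 16 (80%) were higher, 2 (10%) were lower and 2 were not called (median log2 difference 1.92). The shares of all genes were 22.7% and 21.3%. Tyrobp, the ITAM adaptor DAP12, had 7833 and 6758 in pDCs, against 37.2 and 12.8 in CD8 T cells, and Fcer1g, the γ chain of Fc receptors, had 2678 and 2081 in pDCs, against 21.5 and 14.1 in CD8 T cells. They were at least 267-fold and 114-fold higher in pDCs (adjusted p = 1.18e-06 and 9.03e-10). Syk, the relative of Zap70, had 1645 and 1443 in pDCs, against 48.2 and 16.1 in CD8 T cells, Blnk, the B cell adaptor that takes the place of Lcp2, had 1551 and 1374 in pDCs, against 18.6 and 6.602 in CD8 T cells, and Btk had 359 and 232 in pDCs, against 17.3 and 3.899 in CD8 T cells. Plcg2 had 1751 and 1767 in pDCs, against 92.9 and 57.00 in CD8 T cells. Syk and Blnk were at least 49.6-fold and 73.00-fold higher in pDCs (adjusted p = 2.64e-07 and 3.35e-09), so that kinase, adaptor and phospholipase of the pathway each had a pair of genes that ran in opposite directions between the cell types, Syk and Zap70, Blnk and Lcp2, and Plcg2 and Plcg1. Hcst, the adaptor DAP10 of the receptor Klrk1, was lower, with 145 and 108 in pDCs, against 629.7 and 799.8 in CD8 T cells (log2 difference -2.50 ± 0.45, adjusted p = 0.00103), as was Bank1, a B cell signalling scaffold, with 16.1 and 20.4 in pDCs, against 51.6 and 67.1 in CD8 T cells (log2 difference -1.54 ± 0.35, adjusted p = 0.00489). The call of Bank1 was lost with a floor of 50 (adjusted p = 0.672). Of the B cell receptor itself, pDCs had Cd79b but not Cd79a, with 479 and 344 in pDCs, against 131 and 128 in CD8 T cells for Cd79b and 1.37 and 10.8 in pDCs, against 20.2 and 22.4 in CD8 T cells for Cd79a. Ighm, the μ heavy chain, had 5616 and 5694 in pDCs, against 2181 and 2414 in CD8 T cells (log2 difference 1.30 ± 0.27, adjusted p = 0.00263), a call that was lost with all probe sets of the gene averaged (adjusted p = 0.0985) and with a covariate for the naming scheme of the arrays (adjusted p = 0.194).

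**Figure D4:**
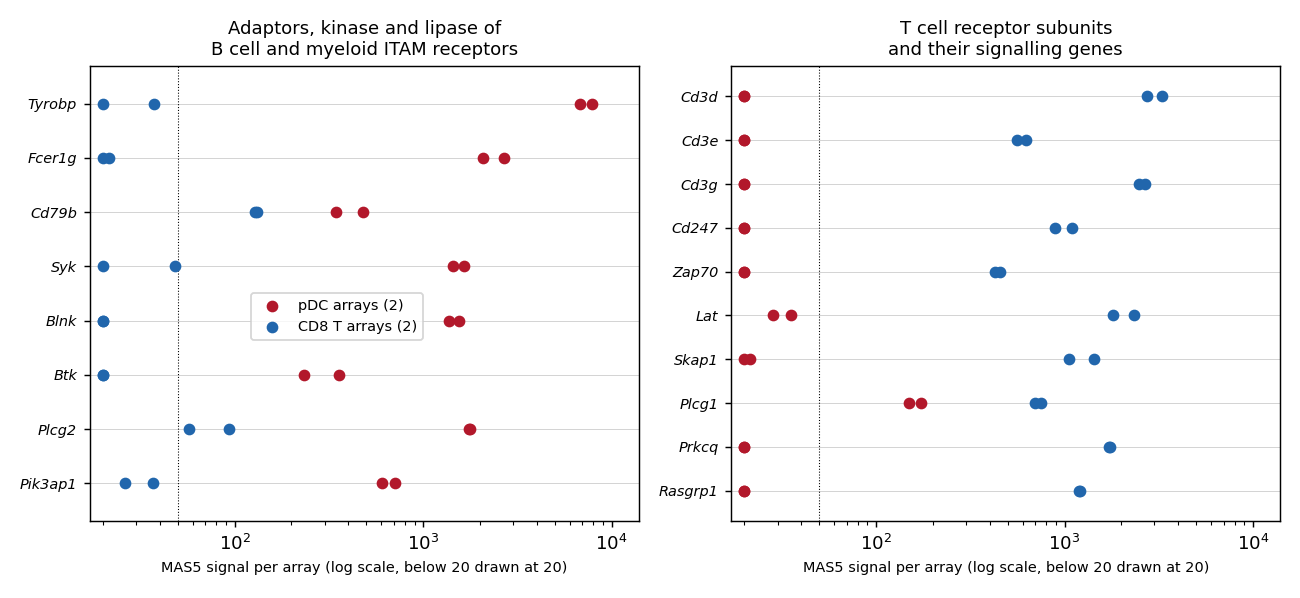
MAS5 signal per array (log scale, values below 20 drawn at 20, dotted line at 50) of 8 genes of B cell and myeloid ITAM signalling (left) and 10 genes of T cell receptor signalling (right) in 2 pDC arrays (red) and 2 CD8 T arrays (blue). The genes drawn were selected from the lists, and members that ran the other way, such as Hcst and Bank1 for the left and Fyn, Sla2 and Cd4 for the right, are not drawn. Among those drawn the pDC points lie at higher signals than the CD8 T points on the left and at lower signals on the right, and Plcg1 is the gene on the right with pDC signals above 50.

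All 22 genes of the pDC identity list were higher in pDCs (median log2 difference 4.85). The list holds genes that the study chose as pDC genes on these arrays, and Bst2, the 120G8 antigen of the sort, so the count is no independent evidence. Klk1, a kallikrein whose probe set may cross-hybridise with other family members, had 6929.5 and 5688 in pDCs, against 1.22 and 6.21 in CD8 T cells, Ly6d had 6094 and 5062 in pDCs, against 16.1 and 15.8 in CD8 T cells and Klra17, a lectin receptor of the Ly49 family, had 2963 and 3177 in pDCs, against 2.74 and 0.437 in CD8 T cells. All were at least 153-fold higher in pDCs. Some pDC genes were shared with CD8 T cells at a lower level. Ccr9, the gut-homing chemokine receptor, had 4877 and 5046 in pDCs, against 1561 and 1260.1 in CD8 T cells (log2 difference 1.82 ± 0.32, adjusted p = 0.00081), and Plac8 had 7702 and 7925 in pDCs, against 2367 and 2604 in CD8 T cells (log2 difference 1.65 ± 0.17, adjusted p = 1.78e-05), so CD8 T cells were above 1000 on each array for both.

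Several genes of endosomal nucleic acid sensing were higher in pDCs, while the sensing list as a whole was mixed. Of 24 genes tested 10 were higher, 4 were lower and 10 were not called (median log2 difference 0.63). Tlr7, the endosomal receptor for single-stranded RNA, had 693 and 683 in pDCs, against 35.8 and 49.2 in CD8 T cells, and Unc93b1, the chaperone of endosomal receptors, had 1358 and 788 in pDCs, against 45.4 and 31.9 in CD8 T cells. Slc15a4, an endolysosomal transporter that pDCs need for interferon production, had 1238 and 1094 in pDCs, against 113 and 141 in CD8 T cells. They were 16.4-fold, 27.2-fold and 9.23-fold higher in pDCs (adjusted p = 0.000195, 8.79e-07 and 4.18e-05), and Tlr12 was at least 8.87-fold higher, with 311 and 204 in pDCs, against 8.36 and 40.2 in CD8 T cells. Pld4 and Pld3, endolysosomal nucleases of one family, ran in opposite directions. Pld4 had 6002 and 5273 in pDCs, against 32.7 and 14.6 in CD8 T cells (log2 difference 7.78 ± 0.72, adjusted p = 7.31e-06), whereas Pld3 had 45.1 and 43.7 in pDCs, against 378 and 589.5 in CD8 T cells (log2 difference -3.41 ± 0.29, adjusted p = 3.54e-06). Lower in pDCs were also Tlr1, a receptor for lipopeptides, with 17.1 and 24.3 in pDCs, against 542 and 415 in CD8 T cells, Ikbke, a kinase of interferon induction, with 55.6 and 59.1 in pDCs, against 580.0 and 705 in CD8 T cells, and Ddx58, the cytosolic RNA sensor RIG-I, with 50.5 and 36.1 in pDCs, against 403 and 453 in CD8 T cells. Their log2 differences were -4.43, -3.48 and -3.32 (adjusted p = 7.34e-06, 4.67e-05 and 1.23e-05). Myd88, the adaptor of most Toll-like receptors, had 677 and 573 in pDCs, against 342 and 301 in CD8 T cells (log2 difference 0.96 ± 0.21, adjusted p = 0.00393). Tlr9, the DNA receptor, was near the floor on all 4 arrays, with 23.5 and 17.9 in pDCs, against 8.78 and 27.6 in CD8 T cells, and was not tested. It did not reach 50 on all replicates of any population of the series, B cells included. These signals therefore do not show that pDCs lack its transcript. Among 25 interferon-stimulated genes tested 7 (28%) were higher, 5 (20%) lower and 13 not called, near the 22.7% and 21.3% of all genes. Ifitm3 had 878 and 671 in pDCs, against 20.9 and 16.6 in CD8 T cells and Stat2 had 229 and 240.5 in pDCs, against 23.3 and 33.3 in CD8 T cells, both higher in pDCs, while Rtp4 was lower, with 42.7 and 31.6 in pDCs, against 675 and 719 in CD8 T cells (adjusted p = 7.48e-07, 0.000117 and 0.000252).

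The MHC class II pathway was higher in pDCs for 16 of 18 genes tested (88.9%), beside 22.7% of all genes (median log2 difference 3.85). H2-Aa, a class II α chain, had 8534 and 9373 in pDCs, against 78.5 and 15.1 in CD8 T cells, and Cd74, the invariant chain, had 7519 and 6790.3 in pDCs, against 121 and 92.4 in CD8 T cells. Ciita, the coactivator of the class II genes, had 115 and 100.2 in pDCs, against 17.2 and 11.7 in CD8 T cells. H2-Aa was at least 226-fold, Cd74 67.5-fold and Ciita at least 5.36-fold higher in pDCs (adjusted p = 2.36e-07, 8.25e-09 and 7.69e-06). Ctsh and Ctsl, cathepsins of the endocytic pathway, had 7059 and 6162 in pDCs, against 20.1 and 3.51 in CD8 T cells for Ctsh and 6581 and 5905 in pDCs, against 173 and 175 in CD8 T cells for Ctsl. Ctsd, another cathepsin, was the 1 gene of the list that was lower, with 627 and 449.7 in pDCs, against 1206 and 1391 in CD8 T cells (log2 difference -1.29 ± 0.27, adjusted p = 0.00306), and H2-Ob, a modulator of peptide loading, was not called, with 177 and 345 in pDCs, against 286 and 396 in CD8 T cells. Of the costimulatory ligands 4 of 8 tested were higher and the other 4 were not called, with Cd40 at 195 and 179 in pDCs, against 7.83 and 11.2 in CD8 T cells, while Cd86 was not called, with 43.8 and 53.1 in pDCs, against 112 and 97.03 in CD8 T cells, but was called lower on the 4 arrays of the pair alone (adjusted p = 0.0195) and without B replicate 1 (adjusted p = 0.00105). Lysosomal genes were higher for 14 of 22 tested and lower for 2 (median log2 difference 1.51), beside 22.7% and 21.3% of all genes. Cd68 had 2813 and 2377 in pDCs, against 26.8 and 28.2 in CD8 T cells, Grn, progranulin, had 5915 and 6277 in pDCs, against 228 and 299 in CD8 T cells and Psap, prosaposin, had 7624 and 7092 in pDCs, against 869 and 1441 in CD8 T cells, and Acp5, the tartrate-resistant phosphatase, was lower, with 135 and 88.5 in pDCs, against 1084 and 1498 in CD8 T cells (log2 difference -3.54 ± 0.41, adjusted p = 4.49e-05). The probe sets of Man2b1 were called in opposite directions, and its value is uncertain.

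Genes of the endoplasmic reticulum and the secretory pathway were higher in pDCs for 24 of 40 tested (60%), beside 22.7% of all genes. The other 16 were not called (median log2 difference 0.91), and none was lower, beside 21.3% of all genes. Sensors and factors of the unfolded protein response were among the 24. Ern1, the sensor IRE1α, had 923 and 922 in pDCs, against 48.1 and 55.3 in CD8 T cells, Xbp1, the factor that its activity splices, had 3165 and 3244 in pDCs, against 602 and 502 in CD8 T cells, and Atf6, another sensor, had 382 and 317 in pDCs, against 39.9 and 44.1 in CD8 T cells. They were 17.9-fold, 5.83-fold and 8.29-fold higher in pDCs (adjusted p = 5.72e-08, 0.000771 and 1.15e-06). Edem2, which hands misfolded glycoproteins to degradation, had 1265 and 991 in pDCs, against 114 and 144 in CD8 T cells (log2 difference 3.13 ± 0.29, adjusted p = 7.04e-06), and Hspa5, the chaperone BiP, had 7207 and 9106 in pDCs, against 3216 and 3189 in CD8 T cells (log2 difference 1.34 ± 0.26, adjusted p = 0.0017). The call of Hspa5 was lost with all its probe sets averaged (adjusted p = 0.0589) and with a covariate for the naming scheme of the arrays (adjusted p = 0.122). Among the genes not called were Canx, the folding chaperone calnexin, with 3230.3 and 3022 in pDCs, against 2511 and 2146 in CD8 T cells, and Sec61b, of the translocation channel, with 2951 and 3028 in pDCs, against 2198 and 1923 in CD8 T cells. Mzb1 and Irf4, which plasma cells share, had 1709 and 1216 in pDCs, against 26.6 and 22.7 in CD8 T cells and 358 and 431 in pDCs, against 22.1 and 25.1 in CD8 T cells, while Prdm1, the factor that drives plasma cell formation, was below 10 on both pDC arrays (4.14 and 9.73 in pDCs, against 27.7 and 24.00 in CD8 T cells).

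Receptors for cytokines divided the cell types almost evenly, with 11 of 27 tested higher, 12 lower and 4 not called. Flt3, the receptor of DC progenitors, had 996 and 1007 in pDCs, against 7.04 and 2.57 in CD8 T cells, Csf2rb2, the mouse interleukin-3 receptor β chain, had 2659 and 2778 in pDCs, against 7.01 and 11.6 in CD8 T cells and Csf2rb had 2202 and 2086 in pDCs, against 6.904 and 1.84 in CD8 T cells. Lifr, the receptor for leukaemia inhibitory factor, had 1554 and 1639 in pDCs, against 0.386 and 0.662 in CD8 T cells. All 4 were at least 50.1-fold higher in pDCs. The receptors of interferons were unequal. Ifnar2 had 2446 and 1921 in pDCs, against 313 and 323 in CD8 T cells and Ifnar1 had 489 and 384 in pDCs, against 176 and 177 in CD8 T cells, both higher in pDCs (2.77 and 1.30 on the log2 scale), while Ifngr1, for interferon-γ, was lower, with 127 and 163 in pDCs, against 840.0 and 653 in CD8 T cells (log2 difference -2.36 ± 0.28, adjusted p = 5.70e-05). Il18r1 and Il2rb, the receptor chains of interleukin-18 and interleukin-2, were at background in pDCs, with 8.95 and 6.73 in pDCs, against 874 and 1103 in CD8 T cells for Il18r1 and 5.93 and 6.24 in pDCs, against 262 and 218 in CD8 T cells for Il2rb. Of the homing and adhesion genes 10 of 25 tested (40%) were lower, 4 (16%) were higher and 11 (44%) were not called, beside 21.3%, 22.7% and 56% of all genes. Itgal, the αL chain of LFA-1, had 1119 and 1026 in pDCs, against 1366 and 1130.4 in CD8 T cells, Itgb7 had 2041 and 1602 in pDCs, against 1717 and 1730.4 in CD8 T cells, Cxcr3 had 1677 and 1269.6 in pDCs, against 1509 and 1823 in CD8 T cells and Selplg, the selectin ligand PSGL-1, had 4404 and 3805 in pDCs, against 3306 and 3769 in CD8 T cells, each with a log2 difference of -0.21, 0.07, -0.18 and 0.21 in this order. Ccr7, S1pr1 and Itgae, which guide T cells to lymph nodes, out of them and to epithelia, were lower in pDCs. Ccr7 had 59.1 and 24.98 in pDCs, against 1247 and 1713 in CD8 T cells, S1pr1 had 21.7 and 14.4 in pDCs, against 791 and 942 in CD8 T cells and Itgae had 0.757 and 12.9 in pDCs, against 1095 and 1028 in CD8 T cells (adjusted p = 5.92e-07, 9.27e-08 and 6.92e-09).

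In the BCL2 family 3 of 11 genes tested (27.3%) were higher, 3 (27.3%) lower and 5 not called, near the 22.7% and 21.3% of all genes. Bcl2, which protects lymphocytes from death, had 70.3 and 61.7 in pDCs, against 1100.4 and 1239 in CD8 T cells and was 17.7-fold lower in pDCs (log2 difference -4.15 ± 0.42, adjusted p = 1.52e-05). Bcl2l11, the proapoptotic Bim, had 332 and 423 in pDCs, against 1957 and 1483 in CD8 T cells, and Pmaip1, the proapoptotic Noxa, had 396 and 851 in pDCs, against 86.6 and 110.4 in CD8 T cells. Bcl2l11 was lower and Pmaip1 higher in pDCs (adjusted p = 0.00619 and 0.00601), but both calls were lost without 1 of the pair's arrays, Bcl2l11 without pDC replicate 1 or CD8 T replicate 1 (adjusted p = 0.0567 and 0.0554), and Pmaip1 without pDC replicate 2 or CD8 T replicate 1 (adjusted p = 0.0713 and 0.0512). Some immediate-early and heat shock genes, which respond to handling of cells, were high on both pDC arrays. On these genes the CD8 T arrays differed from each other. Hspa1b had 6246 and 7389 in pDCs, against 28.5 and 706 in CD8 T cells, Hspa1a had 3922 and 3968 in pDCs, against 8.22 and 125 in CD8 T cells and Jun had 4809 and 5797 in pDCs, against 294 and 1197 in CD8 T cells. Of 20 such genes tested 4 (20%) were higher, 2 (10%) lower and 14, Jun among them, not called, beside 22.7% and 21.3% of all genes. The lower genes were Egr2 and Ier2. Egr2 had 18.4 and 51.5 in pDCs, against 217 and 189 in CD8 T cells. Ier2 had 898 and 714 in pDCs, against 1334 and 2124 in CD8 T cells. The call of Hspa1b was lost when any 1 of the pDC arrays or CD8 T replicate 1 was left out, with adjusted p = 0.158 in the last case, and that of Hspa1a without CD8 T replicate 1 (adjusted p = 0.0621). The part of such a response in the other differences was not tested.

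The 15 genes with the largest difference on each side named several genes outside the lists. On the pDC side, these were D13Ertd608e, an expressed sequence tag, with 7504 and 7267 in pDCs, against 12.96 and 9.99 in CD8 T cells, Mpeg1, a perforin-like protein of phagocytes, with 8250.2 and 8135 in pDCs, against 25.3 and 21.8 in CD8 T cells, and Ly86, which binds the receptor Cd180, with 4868 and 4981 in pDCs, against 28.9 and 2.51 in CD8 T cells. Cybb, the catalytic chain of the phagocyte NADPH oxidase, had 3455 and 4761 in pDCs, against 32.9 and 19.2 in CD8 T cells, and Alox5ap, which activates leukotriene synthesis, had 4700.5 and 4488 in pDCs, against 28.8 and 28.3 in CD8 T cells. Folds of these 5 genes were at least 158, and 1 or both CD8 T arrays were below 20 for D13Ertd608e, Ly86 and Cybb. On the T cell side were Igfbp4, an insulin-like growth factor binding protein, with 13.6 and 21.8 in pDCs, against 2839 and 2741 in CD8 T cells, F2r, the thrombin receptor, with 42.9 and 11.7 in pDCs, against 2828 and 2458 in CD8 T cells, and Pde3b, a phosphodiesterase, with 13.8 and 25.6 in pDCs, against 2289.7 and 1657 in CD8 T cells. C730049O14Rik, a transcript with no assigned role, had 18.9 and 16.9 in pDCs, against 1934 and 1809.9 in CD8 T cells. Their folds were at least 86.1 for each, with 1 or both pDC arrays below 20. The other genes on the T cell side were Trbv1, Trav9d-3, Ms4a4b, Cd3d, Bcl11b, Nkg7, Gimap4, Ccl5 and Prkcq, described above.

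**Figure D5:**
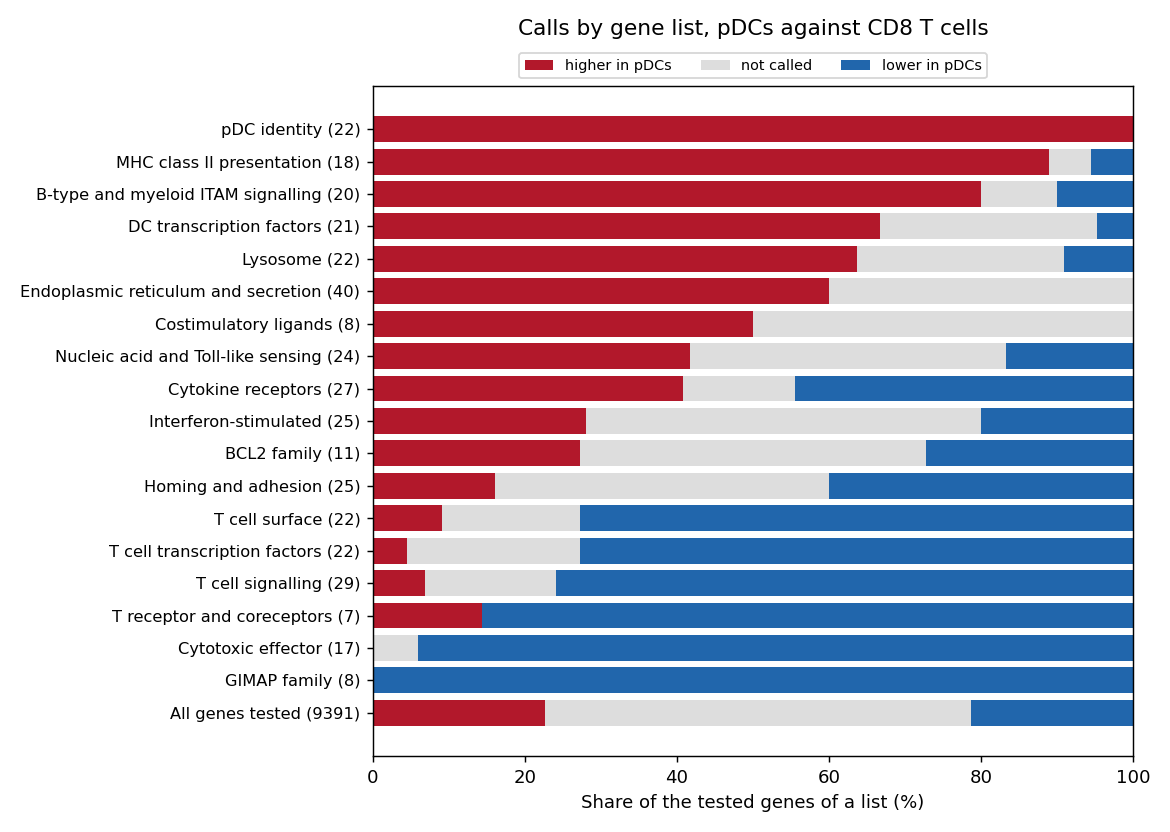
Share of the tested genes of each list that were called higher in pDCs (red), not called (grey) or called lower in pDCs (blue) against CD8 T cells, with the number of genes tested in parentheses. The lowest bar gives all 9391 genes tested, with 22.7% higher and 21.3% lower, and the lists run from pDC identity, with all 22 genes higher, to the GIMAP family, with all 8 lower.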

How the data were processed

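RNA of sorted spleen populations was hybridised to 13 single-colour arrays. The authors deposited MAS5 signal intensity values, linear and scaled to a target of 100 per array, in a matrix that was used as given. Probe sets were named through the platform annotation; of 45101 probe sets 34958 had 1 gene, 932 several and 9211 none. The scanner records were read only for scan day, chip lot and RNA amount, and replicates came from separate sorts.

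Signals below 20 were set to 20 and log2 was taken. Genes with at least 50 in all replicates of any population were kept, and the probe set with the highest mean represented a gene. A linear model with 6 population means over 13 arrays was fitted in limma 3.58.1 under R 4.3.3 with empirical Bayes moderation, with Benjamini-Hochberg adjustment across the 9391 genes. Errors are standard errors of the fit. Precision is limited by how few arrays there are. The script was tested on simulated data.

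Named genes were the markers, 2 to 6 members of each list with the largest differences or highest levels together with exceptions to the direction of the list, and the 15 called genes with the largest difference each way. Further list members were added once their values were known. The members and lists were chosen with earlier results of these data known. Alternatives were quantile and median scaling, other floors and filters, other choices of probe set, the pair alone, batch terms, a replicate block and leaving out each array. Same-numbered pDC and CD8 T arrays are not paired by any label, and their deviations correlated at -0.147.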

Additional observations from a re-analysis of the deposited data

How the results depend on the processing

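The genes called changed more than their number did. With a covariate for the naming scheme of the arrays, 2582 of the 4132 reported calls stayed in the same direction. Of the same 4132, 3278 stayed without the filter on low signals and 3301 on the pair alone. Without a floor 3608 stayed, and with quantile normalization 3982. The number of genes called stayed within 1.5 times the reported one under every alternative run. It ranged from 1615 to 2408 for higher and from 1415 to 2357 for lower genes, and leaving out 1 array at a time spanned these same ranges. With the replicate number as a block, a pairing that no label gives, 2088 genes were higher and 1971 lower, and 20 kept T lymphoid genes were higher than in cDCs as without it; of the named genes, the block changed 1 call, that of Pag1, which became lower (adjusted p = 0.0405). With crossed numbers, added after seeing the data, the counts were 2096 and 1976. The kept T lymphoid genes numbered 37 to 42, and those higher than in cDCs 18 to 20. Of 139 named genes called, 127 were called without each array in turn and 12 lost the call in at least 1 case, Xist among them (adjusted p = 0.051 to 0.0578 without 1 array of the pair).

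A covariate for the naming scheme of the arrays, which separates pDC from CD8 T arrays and is tied to them only through the B cells, ended the calls of 11 named genes, among them Cd7 (adjusted p = 0.0616), Runx1 (0.106), Myd88 (0.164), Bcl2l11 (0.539), Pmaip1 (0.4), Hspa1a (0.435) and Hspa1b (0.721). Without a floor 9 calls were lost, among them Sit1 (0.298), Sla2 (0.626), Cd7 (0.146), Tlr12 (0.0576), Ccr9 (0.0552) and Kdm5d (0.0941). Without a floor the log2 differences of Sit1 (-1.24), Sla2 (0.85), Cd7 (1.47) and Ccr9 (1.82) were the same as with it. Those of Tlr12 and Kdm5d were 3.78 and -4.30, against 3.15 and -3.10 with the floor. The cause of the lost calls was not tested. The naming covariate also called 6 named genes that were not called in the reported fit, Cd48 (log2 difference -1.68, adjusted p = 0.00515), Cxcr3 (-1.76, 0.00246), Klrd1 (-2.05, 0.00481), Ikzf1 (-1.02, 0.00546), Myb (2.06, 0.0105) and Cd79a (-0.74, 0.0281). Without B replicate 1, Jun (adjusted p = 0.00102), Lyz2 (0.00362), Cd86 (0.00105), Sec61b (0.0179) and Canx (0.0456) were called, so genes given as not called are not shown to be alike in both cell types. Some genes that were not called changed sign. With that covariate the log2 difference was 0.41 for Tcf3, 0.32 for Tcf12, -1.67 for Jun, 0.89 for Cd86, -0.21 for Sec61b, -0.87 for Lyz2 and -0.93 for Itgb7, the last called (adjusted p = 0.0383). Quantile normalization gave -0.14 for Itgb7. Leaving out 1 pDC array gave -0.41 to 0.13 for Cd48, -0.93 to 0.0384 for H2-Ob, -0.11 to 0.24 for Itgb7 and -0.39 to 0.0161 for Cxcr3. Signals near the floor limit the folds of genes low in 1 population, and with 2 arrays per population small differences may be missed.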
